A study of Mus musculus with 48 samples.

Results

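The effect of PPARγ knockdown (KD) was measured here on day 0 of the differentiation of 3T3-L1 cells, a mouse fibroblast-like line that can be driven to become fat cells. The comparison rests on 6 of the 48 arrays of the series, 3 from cells given a SMARTpool of siRNAs against PPARγ and 3 from cells given a pool of non-targeting siRNAs (control siRNA), each at 50 nM, chosen by their labels and paired by replicate number. The labels count days from the addition of rosiglitazone, a synthetic ligand of PPARγ. Confluent cells had received 0.5 mM isobutylmethylxanthine (IBMX), which raises cyclic AMP, and 0.25 µM dexamethasone, a glucocorticoid, for 48 h before it, so that both groups of day 0 had passed through that treatment and had not yet had the insulin (5 µg/ml) and rosiglitazone (1 µM) that followed. The 3 replicates are described as independent biological replicates of this single line, and the siRNA was delivered to the whole culture, so that a lower transcript level in fewer cells and a partly lower level in every cell cannot be told apart in the RNA of a culture.

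PPARγ is a nuclear receptor that binds DNA together with a retinoid X receptor and is required for the formation of fat cells. In the early hours of differentiation the transcription factors C/EBPβ and C/EBPδ are induced by cyclic AMP and glucocorticoid, and they in turn raise PPARγ and C/EBPα, which keep each other active and switch on the genes of lipid uptake, storage and hormone secretion. Confluent 3T3-L1 cells also re-enter the cell cycle for a short time after induction before they leave it for good.

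Between 33.4% and 39.3% of the 24613 probes of a day 0 array were above background (detection p under 0.01), and each probe was read on a median of 34 or 35 beads. Values are log2 signals after background correction and scaling of the arrays, differences are PPARγ KD minus control siRNA, and a probe is said to have risen, fallen or been called where limma's Bonferroni adjusted p over all probes was at most 0.05. The first PPARγ KD replicate stood apart in its dim probes. Among the 14499 probes above background on none of the 6 arrays the median difference was 0.50 in the first pair, -0.20 in the second and -0.03 in the third, while among the 7878 probes above background on all 6 it was -0.13, 0.05 and 0.01. Genes that answer to dexamethasone were high on day 0. Of 31 probes of glucocorticoid-responsive genes, 21 were higher on day 0 than on day -2 in control cells and 0 were lower, with a median log2 change of 1.32. Over all probes 9.06% were called between these days in control cells, 4.01% higher and 5.04% lower. In the PPARγ KD 22 of the 31 were higher, with a median of 1.22, and 7.39% of all probes were called. Fkbp5, a chaperone partner of the glucocorticoid receptor, rose by 3.51 in control cells and 3.43 in the PPARγ KD.

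Pparg itself was lower in the PPARγ KD. Probe 6130632 read log2 signals of 11.39, 11.20 and 11.34 in control replicates 1 to 3 and 8.80, 9.11 and 9.46 in the PPARγ KD, and the groups lay well apart. The difference was -2.19 (SE 0.11, adjusted p = 1.40e-16), a 4.56-fold lower level. On a second probe, 1990168, the values were 8.46, 8.38 and 7.64 against 5.68, 5.29 and 5.82, with none of the PPARγ KD arrays above background, so that Pparg was at least 3.11-fold lower there. Such lower bounds set the mean of the brighter group against, for each array of the dimmer group, the higher of the probe's own signal and the lowest signal above background. The third probe of Pparg, 2680603, was not above background on any of the 6 arrays. The transcript rose from day -2 to day 0 under either siRNA, by 1.23 in control cells and by 1.45 in the PPARγ KD on probe 6130632, so that the difference on day 0 was close in size to the -2.41 of day -2.

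On day 0, 747 of the 24613 probes (3.03%), under 696 gene names, were called, 337 of them (1.37% of all probes) lower and 410 (1.67%) higher in the PPARγ KD. The lower probes made up 45.1% of the calls (95% exact binomial interval 41.5% to 48.8%, for counting error only). The median log2 difference was -0.81 among the lower and 0.81 among the higher probes. More than 4-fold differences were found in 18 lower and 6 higher probes, and more than 2-fold differences in 108 and 117. Every called probe had the same sign in the 3 pairs, against 24.8% of all probes, and the control and PPARγ KD values did not overlap for 670 of the 747, against 10.5% of all probes. Called probes were chosen by the same values, so that neither share is a result about them. Scaling the arrays to their medians gave 383 calls, 229 lower and 154 higher (59.8% lower), so the direction that held more probes depended on the scaling. The replicate block of the fit is common to all days and does not pair the arrays within day 0. With a block for each day, which does, 433 probes were called. Without the replicate block 328 probes were called and without the first PPARγ KD array alone 530. Without pairs 1, 2 and 3 in turn (the 2 day 0 arrays of that replicate left out, its other days kept) there were 432, 380 and 647.

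**Figure D1:**
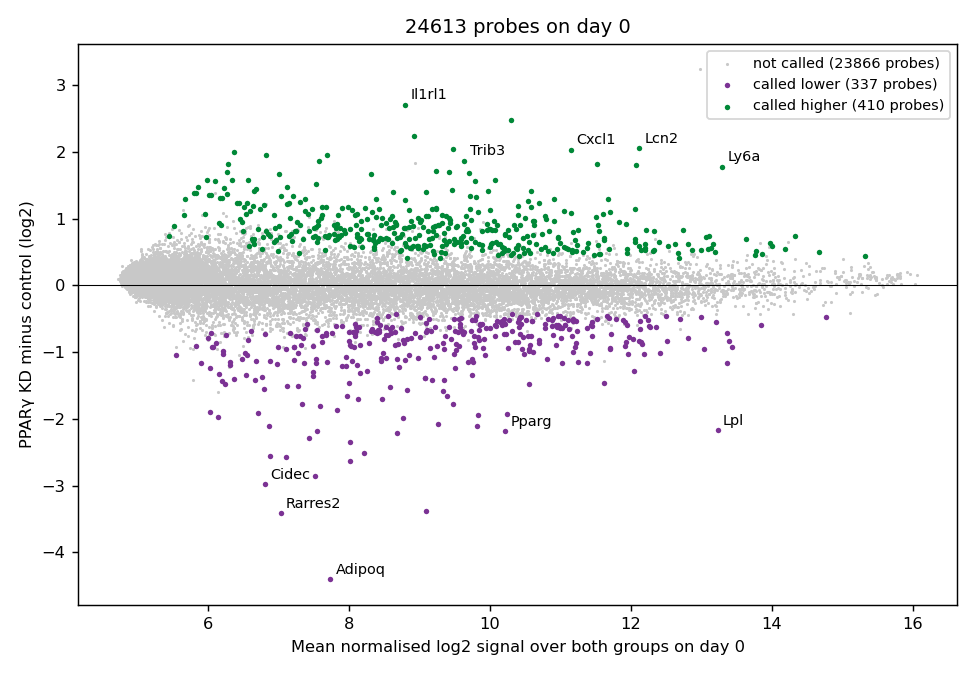
Difference between PPARγ KD and control siRNA on day 0 (log2, vertical axis) against the mean log2 signal of both groups (horizontal axis) for the 24613 probes, with the 337 called lower in purple, the 410 called higher in green and the others in grey. Adipoq lies lowest at -4.40 and Il1rl1 highest among the called probes at 2.71.

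Of the receptor's own circle, 5 of 28 probes of PPARγ and its partners had fallen (17.9%, beside 1.37% of all probes) and 0 had risen. Besides both Pparg probes these were Ppargc1a (PGC-1α, a coactivator that drives mitochondrial genes), Ppargc1b (PGC-1β) and Rxra, the retinoid X receptor alpha with which PPARγ pairs. Rxra read 9.78, 9.73 and 9.77 in control cells and 8.88, 8.72 and 9.10 in the PPARγ KD, which differed by -0.86 (SE 0.11, adjusted p = 3.45e-05). Ppargc1a fell from 7.70, 7.69 and 8.37 to 6.12, 5.15 and 6.15, values at which no PPARγ KD array was above background, and was at least 2.63-fold lower. Ppargc1b was above background on 2 control arrays and on no PPARγ KD array, and was at least 1.37-fold lower (-1.89, SE 0.17). The control and PPARγ KD values of these genes did not overlap.

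Among 33 probes of other transcription factors of fat cell formation, 4 had fallen (12.1%, beside 1.37% of all probes) and 0 had risen. They were Stat5a (-0.89, SE 0.12), a factor downstream of growth hormone, Ebf1 (-0.62, SE 0.10) and Ebf2 (at least 1.29-fold lower), which mark preadipocytes, and Cebpa (-0.79, SE 0.13, adjusted p = 0.0112). Cebpa, which codes for C/EBPα, was still dim in control cells, at 6.34, 6.26 and 6.58 with 1 array above background, against 5.74, 5.27 and 5.80. The early factors that act before PPARγ were not called. Cebpb stood at 13.63, 13.41 and 13.60 in control cells and 13.80, 13.82 and 13.82 in the PPARγ KD (difference 0.27, SE 0.08), and Cebpd at 11.84, 11.89 and 11.49 against 11.47, 11.71 and 11.40 (-0.21, SE 0.10). Both rose between day -2 and day 0 in control cells, by 1.31 and 1.32. Without the first or without the second pair, 1 probe of this list was called lower.

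Adipoq, which codes for the hormone adiponectin, had the largest fitted difference of the called probes. It read 10.23, 10.15 and 9.42 in control cells and 5.54, 5.08 and 5.97 in the PPARγ KD, where it was not above background on any array, and was at least 10.7-fold lower (difference -4.40, SE 0.23, adjusted p = 1.12e-16). On day -2 its signal was not above background in either group, and by day 0 it was above background on all 3 control arrays and still on no PPARγ KD array. The difference between the effects of the days was itself called (-3.71, SE 0.32), a size that rests on signals not above background and is no bound. Cidec, a lipid droplet protein, read 8.73, 8.37 and 7.80 against 5.39, 4.98 and 5.59, at least 3.43-fold lower, and it too was above background in neither group on day -2. Gpd1, glycerol-3-phosphate dehydrogenase, which makes the backbone of triglycerides, read 9.40, 9.49 and 9.08 against 6.77, 6.78 and 6.54 (-2.63, SE 0.14).

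Rarres2 and Timp4 followed another course in time. Rarres2, which codes for the secreted protein chemerin, read 9.02, 8.99 and 8.20 in control cells and 5.43, 5.05 and 5.49 in the PPARγ KD, at least 4.64-fold lower, and was already lower on day -2, by 2.65. In control cells its level on day 0 differed from that of day -2 by -0.10. Timp4, an inhibitor of matrix metalloproteinases, read 8.69, 8.65 and 8.58 against 6.25, 6.15 and 6.97 (-2.18, SE 0.20) and differed by -3.21 on day -2. Lpl, lipoprotein lipase, which releases fatty acids from circulating lipoproteins, was bright on all arrays, at 14.46, 14.37 and 14.13 against 11.90, 12.01 and 12.53 (-2.17, SE 0.10, adjusted p = 3.85e-18). Its difference was -1.26 on day -2 and grew by day 0 (-0.92 between the days, called).

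Adh1, an alcohol dehydrogenase that also acts on retinol, read 10.68, 10.82 and 10.83 in control cells and 6.83, 6.75 and 8.61 in the PPARγ KD, a 10.4-fold difference (-3.38, SE 0.23). Its value in PPARγ KD replicate 3 lay well above the others. Fabp5, a fatty acid binding protein, was at least 3.65-fold lower. Acsl1, which activates fatty acids with coenzyme A, fell by 2.51 on the log2 scale (SE 0.16). Large falls were also found in Cygb (cytoglobin, -2.35), S100b (-2.29), Agt (angiotensinogen, -2.22) and Slc5a6 (the vitamin transporter SMVT, -2.11). The values of S100b on the third arrays, 7.16 and 5.84, were lower than those of the first and second.

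**Figure D2:**
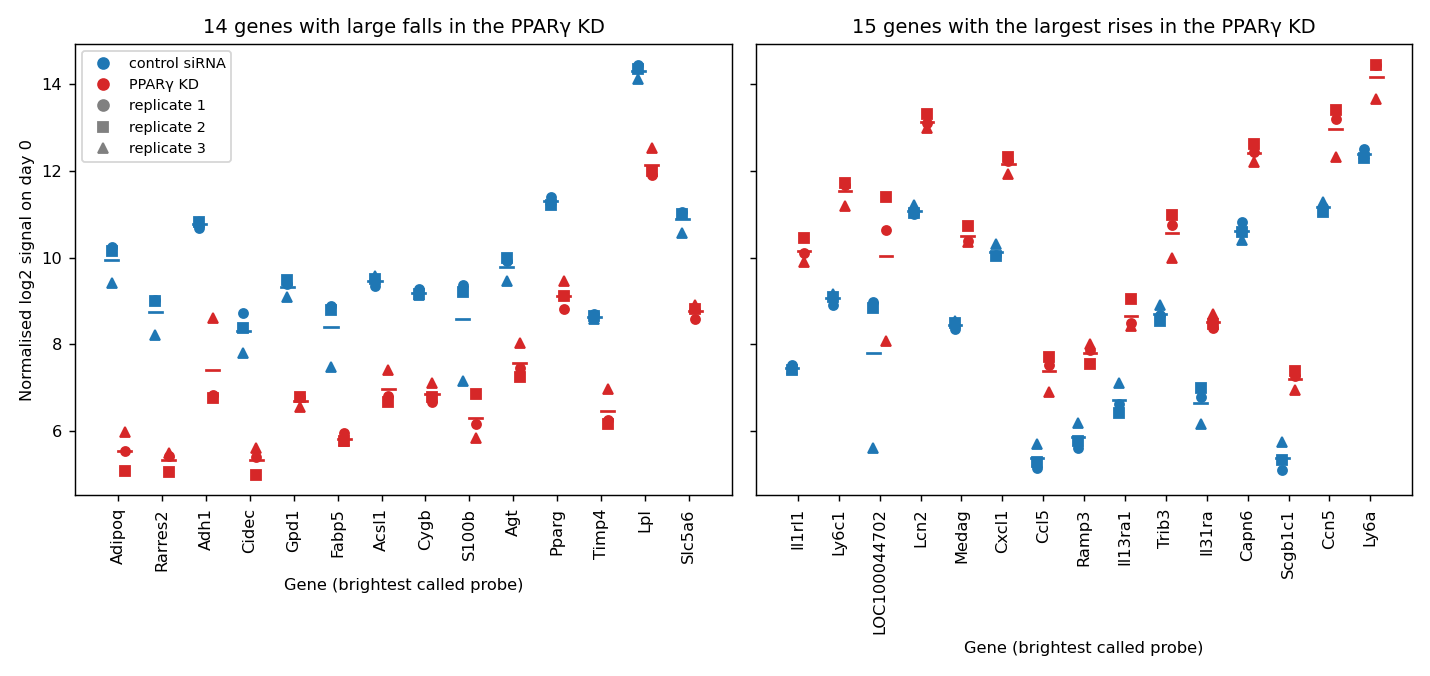
Normalised log2 signal on day 0 of 14 of the 15 genes with the largest falls (left) and the 15 with the largest rises (right) in the PPARγ KD, 1 point for each array (blue, control siRNA; red, PPARγ KD; circle, square and triangle, replicates 1, 2 and 3) with lines at the group means. Adipoq falls from a mean of 9.94 to 5.53 and Il1rl1 rises from 7.45 to 10.16.

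Across the 50 probes of fat cell and PPARγ target genes, 14 had fallen and 1 had risen (30% called, beside 3.03% of all probes). The median difference was -0.14, beside 0.07 over all probes. The median of the list was 0.13, -0.41 and -0.14 in pairs 1 to 3, so that its sign was not the same in the pairs. Of the 50, 20 were above background on at least 3 of the 6 arrays. Fabp4, the fatty acid binding protein of the mature fat cell, was above background on none of the 6 arrays on its probe, and Plin1, a coat protein of lipid droplets, had a difference of -0.92, was above background on none of them either and was not called (adjusted p = 0.0588). Besides those given above, Cfd (the protease adipsin, at least 1.52-fold lower), Plin4 (a droplet coat protein, -1.95), Pnpla2 (the lipase ATGL, -1.47), Ucp2 (an uncoupling protein, -1.02), Angptl4 (an inhibitor of lipoprotein lipase, -1.02) and Slc27a1 (a fatty acid transporter, -0.90) fell. Pdk4, a kinase that shuts off pyruvate dehydrogenase, rose. It read 10.25, 10.30 and 10.23 in control cells and 11.53, 11.60 and 11.52 in the PPARγ KD (1.29, SE 0.13) and had a difference of 1.33 on day -2. Over the alternatives tried with the Bonferroni correction, between 12 and 16 of the 50 probes were called lower.

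Enzymes of lipid synthesis and oxidation fell in part. In fatty acid and triglyceride synthesis, 5 of 34 probes fell (14.7%, beside 1.37% of all probes) and 0 rose. Beside Gpd1 these were Dgat2 and Dgat1, the enzymes of the last step of triglyceride synthesis, Pcx (pyruvate carboxylase) and Agpat2. Without pairs 1, 2 and 3 in turn 3, 5 and 4 probes of this list were called lower, and 3 with the 6 day 0 arrays alone. Dgat2 differed by -1.66 (SE 0.13). Dgat1 read 10.16, 10.06 and 10.22 in control cells against 9.35, 9.20 and 9.63 (-0.75, SE 0.09). Of 39 probes of fatty acid oxidation, 4 fell (10.3%) and 0 rose, with a median of -0.25. Among the falls were the peroxisome genes Pex11a (-1.07) and Pex11g (-0.70), and Acads (-0.62), a dehydrogenase of short-chain fatty acids. Among 32 probes of cholesterol synthesis, 0 were called by limma with Bonferroni adjustment and 5 lower and 6 higher with Benjamini-Hochberg adjustment, and of 87 probes of oxidative phosphorylation 0 were called with the first and 4 lower and 1 higher with the second. Over all probes the second adjustment called 10.6%, of which 5.14% were lower and 5.5% higher. The median difference of these lists was 0.11 and -0.05.

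Antioxidant and detoxification enzymes were called in 11 of 56 probes (19.6%, beside 3.03% of all probes), 9 lower and 2 higher. Mgst1 read 13.51, 13.43 and 13.62 in control cells and 12.29, 12.54 and 12.86 in the PPARγ KD (-0.95, SE 0.12). The probes of Mgst3, another membrane-bound glutathione transferase, differed by -0.79 and -0.77, and Hmox1, which degrades haem, by -0.83 (SE 0.12). Gsta1 was above background on the PPARγ KD arrays alone and was at least 1.11-fold higher. Without pairs 1, 2 and 3 in turn, 4, 3 and 5 probes were called lower.

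Genes of mitosis were higher in the PPARγ KD. Of 78 probes of this list 34 had risen (43.6%, beside 1.67% of all probes) and 0 had fallen. A positive difference was found in 77, and the median was 0.69. Spc24, a part of the kinetochore, read 8.51, 8.68 and 9.05 in control cells and 10.45, 10.29 and 9.78 in the PPARγ KD (1.42, SE 0.13, adjusted p = 1.83e-08). Kif23, a motor of the last step of division, read 10.17, 10.06 and 9.17 against 11.28, 11.71 and 9.97 (1.19, SE 0.11). For Cdk1, the kinase that drives entry into mitosis, the values were 10.18, 9.92 and 9.62 against 10.87, 11.08 and 9.92 (0.72, SE 0.12, adjusted p = 0.0317), and the groups of Cdk1 and of Kif23 overlapped while each pair had the same sign. Cyclin B1 (Ccnb1), the partner of Cdk1, rose on its 2 probes by 0.97 and 0.90. The third pair showed less of this. The mean difference over the list was 0.82 and 0.76 in the first and second pair and 0.24 in the third, where the list mean was 7.34 in control cells, next to 7.28 and 7.31 in the others, and 7.57 in the PPARγ KD, next to 8.10 and 8.06. The count of 34 became 39 without the third pair, 21 without the first and 16 without the second, 22 without the first PPARγ KD array, 16 under median scaling and 13 without the replicate block.

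The level of these genes in control cells was at its lowest of the 3 neighbouring days on day 0. Between day -2 and day 0, 38 of the 78 probes fell in control cells (5.04% of all probes did) with a median change of -0.80, and 8 fell in the PPARγ KD, with a median of -0.23. The list mean went from 8.03, 8.05 and 7.81 to 7.28, 7.31 and 7.34 in control cells and from 8.27, 8.23 and 7.98 to 8.10, 8.06 and 7.57 in the PPARγ KD, so that the arrays of the third pair moved by more similar amounts than those of the others. By day 1 the list mean had come up to 8.47, 8.47 and 8.36 in control cells and to 8.73, 8.71 and 8.46 in the PPARγ KD. The median difference of the list was 0.17 on day -2 and 0.24 on day 1. The change of the effect from day -2 to day 0 was called for 1 probe of the list, that of Kif23 (0.94), and the change to day 1 for 1, of Spc24 (-1.23). The comparison of the siRNAs and that of the days share the control arrays of day 0.

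**Figure D3:**
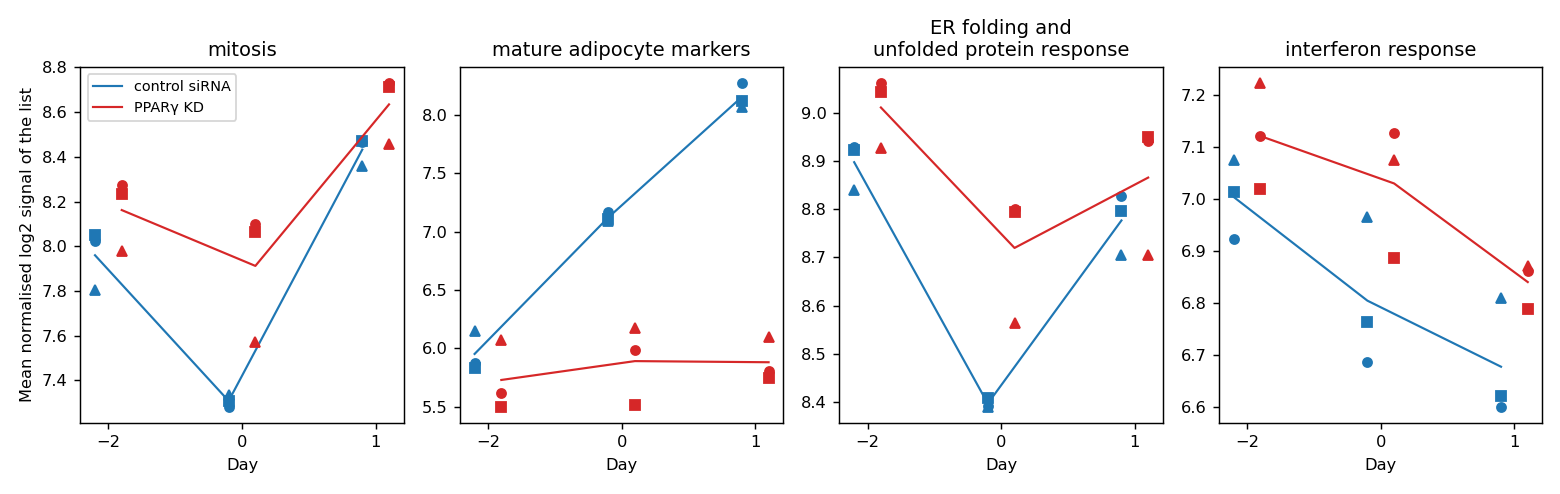
Mean normalised log2 signal of the probes of 4 gene lists on each array of day -2, day 0 and day 1 (blue, control siRNA; red, PPARγ KD; circle, square and triangle, replicates 1, 2 and 3), with lines joining the group means. The mitosis list drops to between 7.28 and 7.34 in the control cells of day 0 and goes from 8.27, 8.23 and 7.98 on day -2 to 8.10, 8.06 and 7.57 on day 0 in the PPARγ KD, and the mature adipocyte markers climb to 7.17, 7.10 and 7.09 in control cells and stand at 5.99, 5.51 and 6.18 in the PPARγ KD.

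The promoters of the mitosis genes share short sequence elements that the list did not use. Genes transcribed late in the cell cycle are known to carry the element TTTGAA, called CHR, near their start, often beside a CCAAT box. A promoter window of 300 bases (250 before to 50 after the start, RefSeq, GRCm38.p6) was at hand for 47 of the 55 genes of the list. TTTGAA was found on either strand in 32 of these 47 (68.1%), in 19 of the 23 genes with a called probe (82.6%) and in 13 of the 24 with none (54.2%), beside 20.2% of the 27025 gene names with a promoter. Of the 265 other genes called higher it was found in 52 (19.6%) and of the 232 called lower in 29 (12.5%). CCAAT was found in 36 of the 47 (76.6%), beside 41.1%, in 16 of the 23 with a called probe (69.6%) and in 20 of the 24 with none (83.3%). 5 of these promoters are printed to show where the element lies, those of the 5 genes with the largest rise among the called ones with a match between 120 bases before and 30 after the start. The capitals mark TTTGAA, or TTCAAA where it lies on the other strand, and every sequence runs along the strand of the gene. They are, in order, chr9:61946770-61946919, chr17:33890604-33890753, chr7:127042391-127042540, chr11:99024160-99024309 and chr9:22389177-22389326, each on the minus strand.
Kif23: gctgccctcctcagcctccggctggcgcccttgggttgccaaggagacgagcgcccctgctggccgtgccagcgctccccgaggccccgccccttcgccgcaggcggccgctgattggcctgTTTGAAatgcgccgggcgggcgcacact
Kifc1: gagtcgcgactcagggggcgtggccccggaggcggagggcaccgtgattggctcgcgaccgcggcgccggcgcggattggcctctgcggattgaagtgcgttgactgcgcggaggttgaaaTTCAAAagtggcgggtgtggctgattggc
Kif22: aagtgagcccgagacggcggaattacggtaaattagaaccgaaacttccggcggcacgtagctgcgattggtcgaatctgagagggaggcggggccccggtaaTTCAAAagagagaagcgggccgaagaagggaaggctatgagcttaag
Top2a: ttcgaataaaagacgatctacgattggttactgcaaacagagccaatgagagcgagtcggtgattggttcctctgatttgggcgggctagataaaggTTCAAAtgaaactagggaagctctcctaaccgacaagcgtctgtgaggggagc
Anln: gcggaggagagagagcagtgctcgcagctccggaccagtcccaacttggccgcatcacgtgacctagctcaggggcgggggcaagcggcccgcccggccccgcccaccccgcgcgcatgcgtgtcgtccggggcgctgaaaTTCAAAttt
The element begins 3 bases after the start in Kif23, 2 in Kifc1 and 22 in Anln, at -17 in Kif22 and at -23 in Top2a. A CCAAT box, printed here as attgg on the other strand or as ccaat, lies in the window of the first 4. These genes code for motors of the spindle (Kif23, Kifc1, Kif22), the DNA topoisomerase of dividing cells (Top2a) and anillin, which shapes the cleavage furrow (Anln), and rose by 1.19, 1.16, 1.14, 1.13 and 1.12.

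DNA replication genes were called in fewer probes. Of 71 probes 10 had risen (14.1%, beside 1.67% of all probes) and 0 had fallen. The median was 0.37, and the mean differences were 0.48, 0.52 and 0.09 in the 3 pairs. Tk1, thymidine kinase, read 8.58, 8.52 and 9.16 in control cells and 9.78, 9.78 and 9.34 in the PPARγ KD on its brighter probe (0.88, SE 0.14). Of the replicative helicase, Mcm2 rose by 0.62, while Mcm5 had a difference of 0.60 and was not called (adjusted p = 0.149). Without the first pair, without the second or under median scaling 0 probes of the list were called higher, 3 without the replicate block, 5 without the first PPARγ KD array and 19 without the third pair. In the promoters of its genes TTTGAA was found in 6 of 37 (16.2%), and the sequence TTTNNCGC, the core of the sites of E2F factors, in 14 of 37 (37.8%), beside 5.9% of all gene names and 6 of 47 (12.8%) in the mitosis list. Among the genes of the array with a promoter, 7.8% held TTTNNCGC.

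Of 58 probes of cyclins, E2F and retinoblastoma proteins and cell cycle inhibitors, 2 rose and 1 fell (5.17%, beside 3.03% of all probes). Among these, cyclin D1 and p21 were called in opposite directions. Ccnd1, which couples growth signals to the cell cycle, read 12.55, 12.49 and 12.49 in control cells and 13.20, 13.11 and 13.06 in the PPARγ KD on its brightest probe (0.62, SE 0.07, adjusted p = 1.06e-06), and rose by 0.81 on another. Both had a negative difference on day -2, -0.32 and -0.19, and the step to day 0 was called for each. Cdkn1a, which codes for the CDK inhibitor p21, was lower on 1 of its probes, at 11.18, 11.14 and 11.38 against 10.61, 10.70 and 10.99 (-0.47, SE 0.08, adjusted p = 0.0161), a call that was lost without any 1 of the pairs. Cdkn1b (p27) was above background on no day 0 array.

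Several secreted and receptor genes of inflammation were higher in the PPARγ KD. Of 66 probes of chemokines and inflammatory genes 13 had risen and 3 had fallen (24.2% called, beside 3.03% of all probes). Il1rl1, the receptor of interleukin-33, had the largest rise on the array among called probes. It read 7.51, 7.40 and 7.43 in control cells and 10.11, 10.46 and 9.89 in the PPARγ KD, a 6.52-fold difference (2.71, SE 0.11, adjusted p = 5.56e-20). The neutrophil attractant Cxcl1 read 10.06, 10.05 and 10.32 against 12.24, 12.33 and 11.94 (2.03, SE 0.12). In both genes the level fell between day -2 and day 0 in control cells, by 2.29 and 1.35, and its change in the PPARγ KD was -0.10 and 0.37. Lcn2, the iron-binding protein lipocalin-2, took the other course. It rose by 4.65 in control cells and by 6.91 in the PPARγ KD, and on day 0 it read 11.01, 11.04 and 11.21 against 13.11, 13.32 and 12.99 (2.06, SE 0.14), while on day -2 it was above background on 2 control arrays and on no PPARγ KD array.

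Ccl7, an attractant of monocytes, rose from 9.10, 8.99 and 8.97 to 10.64, 10.88 and 10.20 (1.56, SE 0.10), and Csf1, the growth factor of macrophages, by 0.97. Ptgs1, the cyclooxygenase COX-1, was higher on each of its 3 called probes, by 1.01, 0.94 and 1.01, and Saa3, an acute phase protein, by 1.02. Ccl2, the other well-known monocyte attractant, had a difference of 0.78 and was above background on 1 array. The falls were in Cxcl12 (-0.93 and -0.60 on 2 of its 3 probes), which holds blood stem cells in bone marrow, and Cx3cl1 (-0.76). The count of 13 rises was 9, 7 and 11 without pairs 1, 2 and 3 in turn and 8 under median scaling, without the replicate block or without the first PPARγ KD array, and that of 3 falls was 1 without the first pair or under median scaling.

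Interferon-stimulated genes were called in 9 of 83 probes (10.8%), all higher, beside 1.67% of all probes called higher. The median difference over the list was 0.14, beside 0.07 over all probes, and it was 0.49, -0.10 and 0.06 in pairs 1 to 3, so that its sign was not the same in the pairs. Bst2, also named tetherin, which holds budding virus at the cell surface, read 9.02, 8.99 and 9.41 in control cells and 10.49, 10.58 and 10.32 in the PPARγ KD (1.32, SE 0.15). Ccl5, a chemokine, was above background on none of the control arrays and on all PPARγ KD arrays and was at least 1.84-fold higher. The others were Ifi27 (1.14 and 0.49), Ifitm3 (0.74), Ly6e (0.57), Irf1 (0.54), H2-D1 (0.45) and Ifitm1 (0.44). The number of probes of the list called higher was 6 without the first pair, 3 without the second, 4 under median scaling and 3 without the replicate block.

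Of 39 probes of protein folding in the endoplasmic reticulum (ER) and of the unfolded protein response 8 rose and 0 fell. That was 20.5%, beside 1.67% of all probes. With Benjamini-Hochberg adjustment 12 were higher and 2 lower. Trib3, a pseudokinase induced when amino acids run short, read 8.67, 8.54 and 8.90 in control cells and 10.74, 10.98 and 9.99 in the PPARγ KD on its brightest probe (1.87, SE 0.15), and its other probes, dim in control cells, were at least 1.55 and 1.38-fold higher. Chac1, which degrades glutathione, read 9.34, 9.32 and 9.18 against 11.19, 11.48 and 9.91 (1.58, SE 0.16), and Asns, asparagine synthetase, 11.78, 11.71 and 10.98 against 12.85, 13.14 and 11.91 (1.14, SE 0.11). Ddit3 (CHOP, 0.53) and Ppp1r15a (GADD34, 0.86) rose too. These 5 genes are known targets of the ATF4 arm of the response, and the median of the whole list was 0.10. The count of 8 was 6, 5 and 8 without pairs 1, 2 and 3 in turn, 5 under median scaling and 3 without the replicate block. In control cells 13 of the 39 probes had fallen since day -2, Trib3 by 3.06 and Chac1 by 2.88, against 7 in the PPARγ KD.

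**Figure D4:**
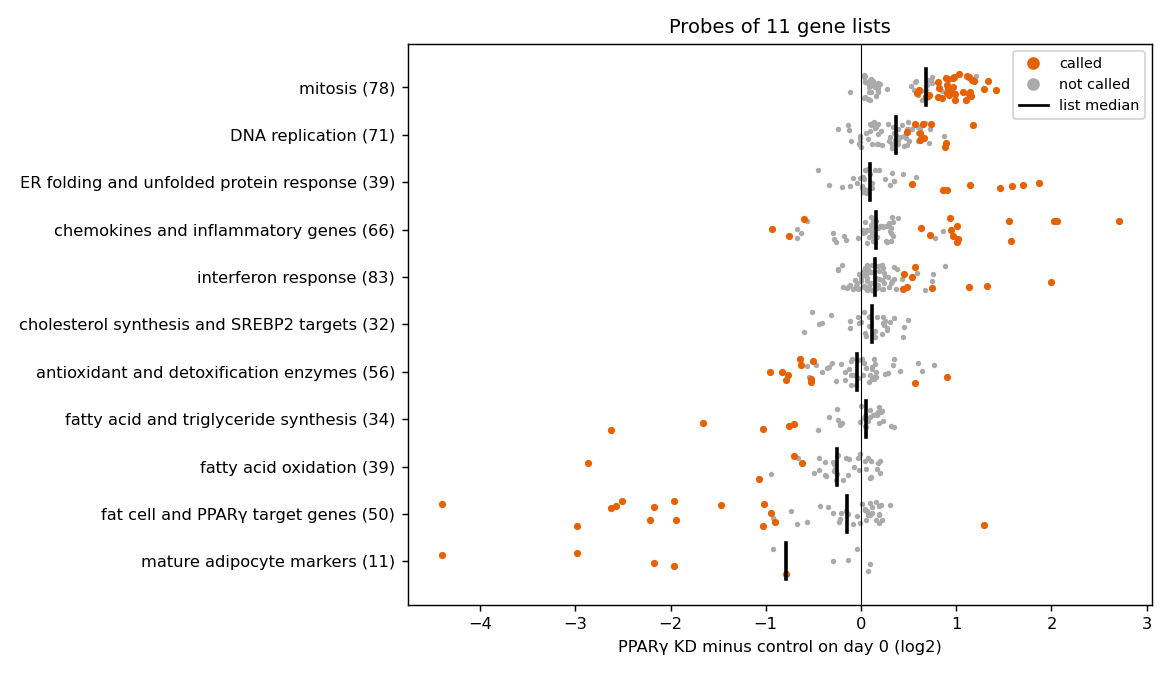
Difference between PPARγ KD and control siRNA on day 0 (log2, horizontal axis) of the probes of 11 gene lists, with the number of probes of each list in brackets, called probes in orange, others in grey and the list median as a black bar. The bar of the mitosis list stands at 0.69 and that of the mature adipocyte markers at -0.79, and in the fat cell list 14 probes are called lower.

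Among the other large rises, Ly6c1 and Ly6a (the stem cell antigen Sca-1), small proteins anchored to the outer membrane, read 8.91, 9.09 and 9.17 against 11.68, 11.73 and 11.19 (2.48, SE 0.11) and 12.51, 12.31 and 12.39 against 14.44, 14.45 and 13.66 (1.78, SE 0.11). The cytokine receptor genes Il13ra1 and Il31ra rose by 1.95 and 1.87, and the peptide receptor partner Ramp3, which was above background on the PPARγ KD arrays alone, was at least 2.50-fold higher. Medag, named for its part in adipogenesis, read 8.35, 8.48 and 8.53 against 10.39, 10.73 and 10.36 (2.04, SE 0.09), Capn6, a calpain without protease activity, 10.82, 10.58 and 10.41 against 12.45, 12.62 and 12.21 (1.82, SE 0.10), and Ccn5, a matrix protein induced by Wnt, 11.18, 11.06 and 11.28 against 13.20, 13.40 and 12.32. Scgb1c1 was at least 1.63-fold higher, and LOC100044702, a predicted gene that the array names only by its number, differed by 2.23 with replicate 3 far below the others in both groups.

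Matrix and cytoskeleton genes were called in either direction. Of 78 probes of matrix proteins 7 fell and 6 rose, and of 44 probes of matrix remodelling enzymes and their inhibitors 4 fell and 5 rose. That was 16.7% and 20.5% of their probes, beside 3.03% of all probes. Col8a1, a collagen chain, read 10.58, 10.47 and 9.84 in control cells and 8.01, 8.38 and 8.28 in the PPARγ KD (-2.07, SE 0.12), and Tnc, tenascin C, fell by 1.04 on the log2 scale, while Dpt (dermatopontin) rose by 1.41 and Fbln2 (fibulin 2) by 0.97 and 0.52 on its probes. The metalloproteinases Mmp13 (at least 1.31-fold lower) and Adam12 (-1.56) fell. Plat, the tissue plasminogen activator, read 9.10, 8.94 and 9.09 against 10.33, 10.51 and 10.32 (1.34, SE 0.10), and Timp1, an inhibitor of metalloproteinases, 11.10, 11.13 and 11.24 against 12.32, 12.33 and 12.11. Of 62 probes of contractile and cytoskeletal genes 3 fell and 5 rose (12.9% called). Among the falls were both probes of Mylk, the myosin light chain kinase (-0.96 and -0.87), and among the rises Cnn2 (0.80) and Flnc (0.68). Without pairs 1, 2 and 3 in turn, the falls in matrix proteins numbered 4, 5 and 5 and the rises 2, 2 and 4, the rises in remodelling enzymes and their inhibitors 6, 3 and 3, and those in contractile and cytoskeletal genes 3, 2 and 2. Under median scaling these counts were 4, 2, 2 and 0, and without the replicate block 4, 1, 3 and 1. Acta2, smooth muscle actin, had differences of 0.28, 0.04 and -0.07 on its probes, with none called, and Col1a1 one of -0.23.

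Genes of preadipocytes and genes that hold back fat cell formation made up a list of 34 probes. Of these 8 were called (23.5%, beside 3.03% of all probes), 2 lower and 6 higher. Over the alternatives tried with the Bonferroni correction, between 4 and 7 were called higher and 1 or 2 lower. Wnt6 was above background in the PPARγ KD alone, at 7.74, 7.65 and 8.14 against 6.25, 5.74 and 6.52 in control cells, and was at least 2.56-fold higher, with a difference of 1.36 on day -2. Tgfb2, transforming growth factor β2, read 10.17, 10.18 and 9.82 against 8.56, 8.62 and 8.74 (-1.42, SE 0.09). Of 47 probes of Wnt ligands, receptors and secreted antagonists 3 fell and 4 rose (14.9% called). Over the same alternatives between 1 and 3 were called lower and between 3 and 6 higher. Of other genes of the Wnt pathway the receptor Fzd5 fell (-1.35, SE 0.10), while Fzd1 (0.96) and the Wnt-induced Ccn4 (1.29) rose. Dlk1, which marks preadipocytes, was bright in all 6 arrays and had a difference of 0.33 (SE 0.09) that was not called by limma.

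The remaining gene lists, cell type markers aside, had at most 3 calls each, apart from the glucocorticoid-responsive one. Over all probes 3.03% were called, in the glycolysis list 11.5% and in the glucocorticoid-responsive list 22.6%. Glycolysis had 3 rises among 26 probes (Pgk1 0.69, Pkm 0.59 and Gapdh 0.54, with 0 under median scaling and 1 without the replicate block), the citric acid cycle 2 falls among 31 (Aco1 -0.82 and Idh1 -0.45; 0 without the first pair, without the second, under median scaling or without the replicate block), and cytosolic ribosomal proteins 2 falls among 81, of Rps19 and Rps24, a count that was 0 without the replicate block and 4 without the third pair. Of 58 proteasome probes 1 rose (Psma1; 0 without the first pair, without the second, under median scaling or without the replicate block), and of 102 probes of mitochondrial ribosomal proteins 0 were called by limma with Bonferroni adjustment and 8 lower with Benjamini-Hochberg adjustment. p53 targets were called in 2 of 33 probes, Gadd45a higher (0.49, lost without the second or the third pair, under median scaling and without the replicate block) and Cdkn1a lower, and cyclic AMP-responsive genes in 1 of 32. The glucocorticoid-responsive list, 21 of whose probes had risen in control cells, had 5 probes lower and 2 higher in the PPARγ KD, among the former both probes of Hsd11b1 (-1.10 and -0.91), the enzyme that regenerates active glucocorticoid, and Serpina3n (-1.20).

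Fibroblast markers were bright in both groups, and markers of other cell types were mostly not above background. Of 14 probes of fibroblast and preadipocyte markers 12 were above background on all 6 arrays, with Cd34 and Fap dim, and 3 were higher in the PPARγ KD, of Ly6a, Thy1 (0.82) and Col3a1 (0.74), a count that was 1 without the second pair or under median scaling. The summed linear signal of the list ran from 111005 to 116669 in control cells and from 120406 to 145368 in the PPARγ KD. Mature adipocyte markers were above background on some array in 5 of 11 probes, fell in 5, and summed to between 19342 and 24679 against 4259 and 6367. Macrophage markers were above background on some array in 1 of 16 probes, that of Cd14, which was above background on the PPARγ KD arrays alone and at least 1.38-fold higher, a call that was lost without the first pair, without the second and under median scaling, while Ptprc, Adgre1, Cd68 and Csf1r were dim on all 6. Endothelial markers were so in 1 of 7, muscle markers in 0 of 7 and bone and cartilage markers in 2 of 11, with 0 called.

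The effect of day 0 was then set beside that of the neighbouring days. On day -2 there were 212 called probes (0.861%) and on day 1 there were 716 (2.91%). Of the calls of day 0, 100 (13.4%) were also called on day -2, which is 47.2% of the calls of that day, and 99 of them had the same direction. With day 1 day 0 shared 311 calls, 41.6% of those of day 0 and 43.4% of those of day 1, 310 of them in the same direction. The probes called lower on day 0 had a median difference of -0.81 on that day, -0.30 on day -2 and -0.52 on day 1, and those called higher 0.81, 0.24 and 0.51. They were chosen by their values on day 0, so that smaller values on the other days are in part given by the choice.

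The difference between the effects was tested probe by probe. From day -2 to day 0 the effect differed in 163 probes (0.662%), 70 towards lower and 93 towards higher levels in the PPARγ KD, and in 142 of these the effect was the larger in size on day 0. From day 0 to day 1 it differed in 121 probes (0.492%), 55 and 66 by direction, and in 67 of these it was the larger on day 1. In 28 of the 163 and 24 of the 121, some siRNA group of the days compared had no array above background, so that the size of the change there rests on background signals. Without the second pair these counts were 94 and 80.

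In 21 probes both steps were called, and in 11 of them day 0 stood apart, with the larger effect and a change back by day 1. Col8a1 differed by -0.17 on day -2, by -2.07 on day 0 and by -0.47 on day 1. Fhdc1, a formin-like protein, read 9.82, 9.77 and 9.69 in control cells and 7.62, 7.88 and 7.81 in the PPARγ KD (-1.99, SE 0.09) and differed by -0.26 and 0.12 on the days before and after. The regulator of G-protein signalling Rgs3 (-1.31), Tprg (-1.14) and Pdlim1, a PDZ and LIM domain protein of actin fibres (-0.62), were of the same kind. In the other direction these were Medag, Ramp3, Capn6, Scgb1c1 and Nupr1, a small stress-induced nuclear protein (1.17 on day 0, 0.17 and 0.15 beside it). Il1rap, the co-receptor of Il1rl1, had this shape on probe 6370373, with 0.29, -0.53 and 0.33, and was not called on day 0 itself.

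In the other 10 of the 21 the course was different. Cidec was above background in control cells alone, on day 0 and on day 1, with fitted differences of -2.98 and -6.56 whose sizes rest on background signals of the PPARγ KD. Gpd1 went from -0.46 on day -2 to -2.63 and -6.22, G0s2, an inhibitor of the lipase ATGL, from -0.02 to -1.78 and -3.69, Arxes2 from -0.26 to -1.77 and -2.67 and Pex11a from -0.14 to -1.07 and -2.01. CES3, a carboxylesterase, Pde1b, which degrades cyclic nucleotides, and Mmp3, a metalloproteinase, were above background on no array of day 0, so that their levels of that day could not be compared. On day -2 and day 1 CES3 was above background in control cells alone, Pde1b had differences of -1.55 and -1.83, the second against signals not above background, and Mmp3 of -0.80 and 1.46. Ppp1r3c (-0.67, 0.17 and -0.65) and Cyp26b1 (-0.54, 0.47 and -0.82) had a positive difference on day 0 alone, and neither was called on that day.

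**Figure D5:**
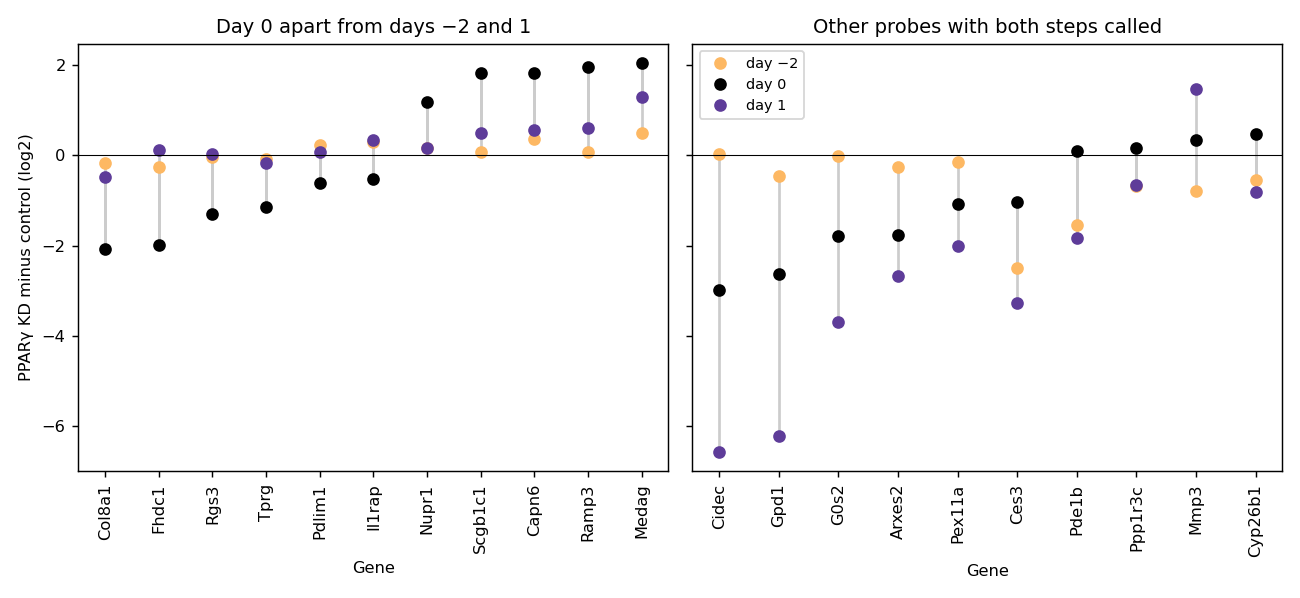
Difference between PPARγ KD and control siRNA (log2) on day -2 (orange), day 0 (black) and day 1 (purple) for the 21 probes in which both steps between the days were called, the 11 in which day 0 stands apart on the left and the other 10 on the right, ordered by the difference on day 0. Col8a1 and Fhdc1 lie near -2 on day 0 alone, and Cidec and Gpd1 go on to below -6 on day 1, for Cidec against a PPARγ KD signal not above background. CES3, Pde1b and Mmp3 were above background on no day 0 array, so that their black points give no level.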

How the data were processed

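RNA of 3T3-L1 cells was read on Illumina MouseRef-8 arrays, 48 in all (2 siRNAs, 8 days, 3 biological replicates). The deposited intensities are mean bead signals that the authors took from BeadStudio 3.3.7 without normalization, beside bead numbers and, as a fraction, a detection value read here as 1 minus the detection p. The signals were corrected for background (limma 3.58.1, R 4.3.3, normexp on the detection p, offset 16), scaled on rank-invariant probes and set on the log2 scale. A linear model over all 48 arrays held the 16 conditions and the replicate number as a block, with moderated variances and Bonferroni adjustment over the 24613 probes, at 0.05. The study's methods name a batch term without saying what the batch was, and the replicate number was taken for it here. Tested on simulated data, this recovered 89 of 100 probes changed by 1 log2 unit on day 0 and 100 of 100 changed by 2. For the change of the effect from day -2 to day 0 it recovered 49 of 100 and 100 of 100. Each had 0 false calls, which is no error rate for the arrays of this series. Recovery with an outlying array, or with replicate differences that vary by day, was not tested.

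Same-numbered day 0 arrays deviated together over the 10567 probes above background on at least 3 arrays of the series (r 0.544, 0.745 and 0.864 in pairs 1 to 3, from 0.544 to 0.914 over the 24 pairs), and less so over all probes (0.024, 0.659 and 0.867), where control replicate 1 was closest to PPARγ KD replicate 2 (0.837). Gene names are those of the array, updated through RefSeq (18343 probes by symbol, 4361 by synonym, 1909 unmatched). Named were Pparg, the 15 genes with the largest called difference in each direction, up to 5 called members and a few well-known ones of each list, the 5 largest changes of the effect between days in each direction, and the 21 probes with both changes called. Further genes, among them those that complete a list's calls, were named after their values were seen. Some genes are not reported here. Members and lists were chosen with earlier results of these data known. The number of arrays limits the precision. Figures were drawn with Python 3.11.15, pandas 2.3.3 and matplotlib 3.10.9.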

Additional observations from a re-analysis of the deposited data

Results flagged for a closer look

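The effect of PPARγ KD differed between days, by limma's test of the difference of the effects with Bonferroni adjustment, in 163 probes from day -2 to day 0 and in 121 from day 0 to day 1, and each value here is the log2 effect of the later day minus that of the earlier. From day -2 to day 0 the effect moved towards lower levels in the PPARγ KD in Adipoq (-3.71), Cidec (-3.02), Fabp5 (-2.69), Acsl1 (-2.27), Gpd1 (-2.17), Cfd (-2.09), G0s2 (-1.76), Pnpla2 (-1.69), Arxes2 (-1.51), Dgat2 (-1.50), Pex11a (-0.93), Lpl (-0.92) and Dgat1 (-0.86), and in Ppargc1b (-1.58) and Rxra (-0.88). It moved the same way in Adh1 (-2.02), Slc5a6 (-1.68), Cygb (-1.34) and Mgst3 (-0.81 and -0.82), and in Col8a1 (-1.91), Fhdc1 (-1.73), Rps19 (-1.42), Rgs3 (-1.26), Tprg (-1.06), Pdlim1 (-0.85), Il1rap (-0.82) and Fzd5 (-0.80).

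Towards higher levels in the PPARγ KD it moved in Lcn2 (2.26), Il1rl1 (2.19), Il31ra (2.10), Cxcl1 (1.72), Il13ra1 (1.55), Ccl7 (1.22) and Csf1 (1.06), and in LOC100044702 (1.92), Ramp3 (1.88), Ly6c1 (1.83), Ccn5 (1.76), Scgb1c1 (1.73), Medag (1.54), Ly6a (1.51), Ccn4 (1.29), Fzd1 (1.16), Thy1 (1.06), Timp1 (1.02), Plat (0.92) and Ifitm3 (0.65). Others of this direction were Pde1b (1.64), CES3 (1.46), Capn6 (1.45), Trib3 (1.34), Mmp3 (1.15), Cyp26b1 (1.01), Ccnd1 (0.94 and 1.00), Nupr1 (1.00), Kif23 (0.94), Cnn2 (0.85) and Ppp1r3c (0.84).

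From day 0 to day 1 the effect moved on towards lower levels in Gpd1 (-3.60), Cidec (-3.59), Plin1 (-2.29), G0s2 (-1.91), Plin4 (-1.14), Pex11a (-0.93), Angptl4 (-0.93) and Arxes2 (-0.90), and in both probes of Hsd11b1 (-1.45 and -1.76). It also moved that way in CES3 (-2.23), Pde1b (-1.92), Ramp3 (-1.35), Scgb1c1 (-1.31), Cyp26b1 (-1.28), Capn6 (-1.27), Spc24 (-1.23), Nupr1 (-1.02), Psma1 (-0.82), Ppp1r3c (-0.82) and Medag (-0.75). Towards higher levels it moved in Fhdc1 (2.11), Col8a1 (1.60), Rgs3 (1.34), Tnc (1.32), Mmp13 (1.26), Mmp3 (1.11), Tprg (0.98), Cx3cl1 (0.95), Tgfb2 (0.87), Il1rap (0.86) and Pdlim1 (0.69). Some siRNA group of the days compared had no array above background for Adh1, Adipoq, CES3, Cfd, Cidec, Fabp5, Il31ra, Lcn2, Mmp3, Pde1b, Ppargc1b, Ramp3 and Scgb1c1 in the first of these steps and for CES3, Cidec, Mmp13, Mmp3, Pde1b, Plin1, Ramp3 and Scgb1c1 in the other, so that the sizes of their changes rest on background signals.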

How the results depend on the processing

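The 747 calls of day 0 became 383 under median scaling of the arrays, 328 without the replicate block, 433 with a replicate block for each day, 248 with the 6 day 0 arrays alone and a replicate block, and 2617 with Benjamini-Hochberg adjustment. Without 1 replicate, that is without its 2 arrays of day 0, there were 380 to 647. The lower share of 45.1% was 59.8% under median scaling, 50.6% without background correction and 38.7% to 52.4% without 1 replicate. Leaving out only PPARγ KD replicate 1 of day 0, a setting chosen after seeing the data, gave 530 calls and a lower share of 39.2%. The 163 changes of the effect from day -2 to day 0 became 82 under median scaling, 57 without the replicate block, 75 with a block for each day, 782 with Benjamini-Hochberg adjustment and 94 to 186 without 1 replicate, and the 121 from day 0 to day 1 became 68, 42, 59, 621 and 80 to 146. The cause of these moves was not tested, except that fewer arrays and a larger residual spread enter by construction where arrays or the block were left out. The difference of Pparg stayed between -1.99 and -2.34 and was called in each setting. Over the named probes and settings, 229 values of called probes kept the direction and were no longer called, and 0 values of called probes reversed. Newly called were 10 values, and the other 1743 were counted as unchanged. For named probes not among the 747 calls a change of direction was not counted. Dim probes were limited by background: 34 of the lower calls were above background on no PPARγ KD array, 38 of the higher calls on no control array, and 5 calls on none of the 6.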

Other observations

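4 further groups of genes were put together after their values were seen, so that their counts are a description. Over all probes 3.03% were called, and the counts of these groups under other settings are not given. Serine and mitochondrial one-carbon metabolism, which feeds purine and thymidine synthesis, had 6 of 12 probes higher in the PPARγ KD and 0 lower. Slc6a9, a glycine transporter, read 8.43, 8.30 and 8.42 in control cells and 10.43, 10.42 and 9.45 in the PPARγ KD (1.72, SE 0.13). Mthfd1l (1.41), Aldh1l2 (1.15), Shmt2 (0.93 on its brighter probe) and Psat1 (0.83) rose as well, while Mthfd2, bright in both groups, differed by 0.35 and was not called. Of 21 probes of the amino acid response and of tRNA charging 5 rose and 0 fell: Nupr1 (1.17), Vldlr (0.82), Aars (0.65), Atf5 (0.63) and Cars (0.57). Atf4 itself, which codes for the factor that drives this response, differed by 0.35 and 0.57 on its probes and was not called.

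Secreted growth factors, their binding proteins and the enzyme Enpp2 were called lower in 9 of 18 probes and higher in 1. All 3 probes of Igf1 and both of Fgf10 were among the 9. Igf1, insulin-like growth factor 1, read 10.23, 10.15 and 10.63 in control cells and 8.57, 8.89 and 10.09 in the PPARγ KD on one of its 3 probes (-1.15, SE 0.14), with the third pair closer together than the others. Igfals, which binds it in serum, differed by -1.46, Fgf10 by -1.03 and -1.22, Angpt2 by -1.40, Enpp2 (autotaxin) by -1.47 and Bmper by -1.17, while Vegfc, a growth factor of lymph vessels, rose by 1.04 (SE 0.08). Receptors and their partners were called in both directions, 5 of 23 probes lower and 9 higher. Vdr, the vitamin D receptor, read 11.03, 10.81 and 11.25 against 12.28, 12.26 and 12.43 (1.29, SE 0.07). Ramp2 fell from 9.76, 9.82 and 9.71 to 8.13, 8.38 and 8.64 (-1.38, SE 0.13), while Ramp3 of the same family rose. Lrig1, a brake on growth factor receptors, differed by -1.93 (SE 0.11) and Gper1 by -1.51 (SE 0.08).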
